A study of Mus musculus with 12 samples.

Results

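The genes of insulin and leptin signalling described here are 10 listed genes, the receptors Insr and Lepr, the docking proteins Irs1 and Irs2, the kinase arm genes Pik3r1 and Akt2, the transcription factors Foxo1 and Foxo3, and the inhibitors Socs3 and Grb14. They were taken by symbol from a table of 56205 mouse genes, of which 13416 passed the filter on low counts, and all 10 passed it. RNA came from whole livers of male ob/ob mice (B6.Cg-Lep ob/J), 8 to 10 weeks of age when treatment began, and 1 library was made per mouse. Every mouse of both groups therefore carried the Lep ob mutation, received standard chow and lacked working leptin, and no group with an intact Lep gene was analysed here. The FLO group (6 mice) had chow alone, and the fibrotic group (6 mice) had chow with ethionine, the ethyl analogue of methionine, which is toxic to the liver. The sources give the ethionine as 0.165% DL-ethionine in drinking water over 2 weeks, as a 0.15% injection, or in the study's methods as drinking water for 1 week, so the dose and time are not settled. Fibrotic is the name in the labels and was not taken here as a measured property of the livers. The comparison asks how the genes that carry insulin and leptin signals differed between leptin-lacking livers with and without ethionine.

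Insulin binds the insulin receptor on hepatocytes, which phosphorylates the docking proteins IRS1 and IRS2. These recruit PI3-kinase, which activates AKT2, and AKT2 keeps FOXO1 and FOXO3 out of the nucleus, so that genes of glucose output are turned down while the lipogenic factor SREBP1c is turned up. Leptin, made by adipocytes, acts through its receptor and JAK2 on STAT3, whose target SOCS3 feeds back on the receptor. In ob/ob mice this hormone is absent, appetite is not restrained, and the animals become obese, with high insulin and a fatty liver.

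Fibrotic libraries held 17815568 to 20352675 counts each, FLO libraries 18275320 to 24814263. Mitochondrial transcripts took a smaller share of counts in the fibrotic group (4.93 to 7.88%) than in the FLO group (7.30 to 10.2%), with some overlap. FLO replicate 3 held 3773 counts of Xist and 4 of the Y-linked gene Ddx3y, against 0 to 4 of Xist in each of the other 11 libraries, which goes against the label that only males were used. Fibrotic replicate 4 lay farthest out on the first principal component, which held 59.7% of the variance. Of the 10 listed genes, this library was the highest of its group for Irs2, Foxo1, Foxo3 and Socs3 and the lowest for Grb14. Other libraries stood at an end as often: fibrotic replicate 1 was lowest for 6 genes, and FLO replicate 6 lowest for 5 and highest for 1. Values without FLO replicate 3 or fibrotic replicate 4 are given where leaving that library out changed the call of 1 of the 10 genes. They are also given where it moved the called value of any named gene by more than 1.5 times. Levels below are CPM (counts scaled to a fixed TMM-normalized library size), given as mean ± SD over 6 mice unless stated, and p-values measure the spread between these mice. A gene counted as called where its edgeR adjusted p (FDR) was at most 0.01 and its log2 fold change lay beyond 0.5 in either direction.

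Of the 10 genes, 1 was called higher in fibrotic livers (Lepr), 2 were called lower (Irs2 and Grb14), and 7 were not called. Among all 13416 genes tested 4012 were called, which is 29.9%, with 15.9% higher and 14.0% lower, so the 30.0% of listed genes called was near the background and is not a result about the list. Their median log2 fold change was -0.12, against 0.03 over all genes tested. With no overlap at all between the groups there was 1 gene that was higher (Lepr) and 1 that was lower (Grb14), beside 30.4% of all genes, 15.3% higher and 15.1% lower. At an FDR of 0.05 with no minimum fold 5 of the 10 genes passed, beside 52.1% of all genes. The plot of CPM by library shows how far the 2 groups stood apart for each gene.

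**Figure D1:**
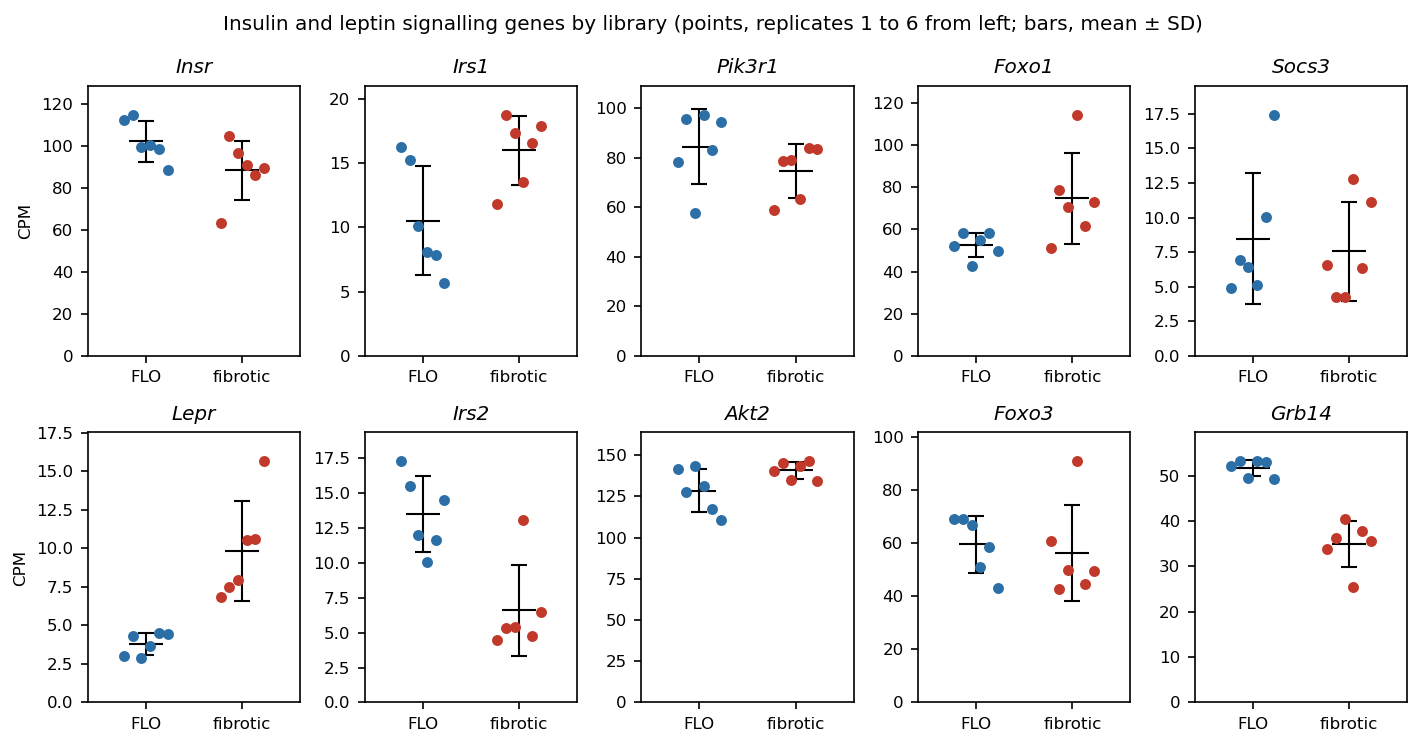
CPM of each of the 10 genes in every library, FLO in blue and fibrotic in red, with replicates 1 to 6 from left to right and bars for the mean ± SD (n = 6); each panel has its own axis from 0. The groups do not overlap for Lepr (fibrotic 6.84 to 15.6, FLO 2.87 to 4.50) or for Grb14 (fibrotic 25.6 to 40.4, FLO 49.4 to 53.2), and fibrotic replicate 4 is the only fibrotic library of Irs2 inside the FLO range.

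Lepr (ENSMUSG00000057722), the leptin receptor, had the largest fold change of the 10 genes. In fibrotic livers its lowest, median and highest level was 6.84, 9.25 and 15.6 CPM. In FLO livers these were 2.87, 3.99 and 4.50 CPM. Every fibrotic library lay above every FLO library, and the levels of the fibrotic group were spread more widely (SD 3.26) than those of the FLO group (SD 0.727). Mean levels were 9.85 ± 3.26 and 3.80 ± 0.727 CPM, a 2.60-fold difference (log2 fold change 1.38, SE 0.20, 95% interval 0.95 to 1.81, FDR 4.38e-05). The counts behind these values were 141 to 309 per fibrotic library and 55 to 87 per FLO library, among the smaller counts of the 10 genes. The log2 fold change stayed between 1.20 (without fibrotic replicate 6, the highest) and 1.47 when each library was left out in turn.

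The receptor exists as a long form that signals through STAT3 and as short forms that cannot. The Lepr gene (GRCm38 chr4:101717404-101815352, plus strand) has 7 annotated transcripts, 4 of them protein coding, and the gene counts do not separate them, so which form was higher was not measured. Leprotl1, a relative of the endospanin gene Leprot that limits the amount of leptin receptor and growth hormone receptor at the cell surface, was also called higher (35.9 ± 4.64 against 17.6 ± 1.75 CPM, log2 fold change 1.02, FDR 7.46e-07). Leprot itself was not called (23.6 ± 2.55 against 19.0 ± 2.22 CPM, log2 fold change 0.32, FDR 0.0117). The ligand gene Lep was not tested, because it had at most 10 counts in a fibrotic library and 2 in an FLO library, and was at 0 in 4 of 6 libraries of each group. The stretch just upstream of the annotated Lepr start, in which all bases lie outside the gene's exons, is shown because Lepr had the largest fold change of the 10 genes. It is taken from RefSeq promoter windows on GRCm38.p6, chr4:101717157-101717403, plus strand, 247 bases with 58.7% G and C. It holds none of the motifs GTAAACA (a FOXO site), CAAAACA (the core of insulin response elements) or TTCNNNGAA (a STAT site) on either strand, so it is all in lower case.
Lepr: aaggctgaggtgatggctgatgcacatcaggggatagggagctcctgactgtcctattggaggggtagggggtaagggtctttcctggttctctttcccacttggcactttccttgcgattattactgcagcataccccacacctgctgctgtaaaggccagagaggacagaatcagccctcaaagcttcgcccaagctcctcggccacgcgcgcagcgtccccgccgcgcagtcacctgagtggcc
A second RefSeq window of Lepr, which covers part of an exon and is not printed, holds CAAAACA 114 bases before its start site.

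Insr (ENSMUSG00000005534; chr8:3122061-3279617, minus strand), the insulin receptor itself, was not called. Its lowest, median and highest level was 63.1, 90.1 and 105 CPM in fibrotic livers. In FLO livers the corresponding levels were 88.4, 99.9 and 115 CPM. The groups overlapped: the median of FLO lay above 5 of the 6 fibrotic libraries, and fibrotic replicate 1 was the lowest of all. The mean was 88.5 ± 14.1 against 102 ± 9.76 CPM, and the interval of the log2 fold change ran from -0.44 to 0.02 (-0.21, SE 0.11, FDR 0.117). The related receptor Igf1r, which is sparse in adult hepatocytes, stood at 2.83 ± 0.574 and 2.88 ± 0.882 CPM (log2 fold change -0.02, FDR 0.943), and the sign of this small difference turned in other fits.

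The differences of the docking proteins had opposite signs, and that of Irs2 alone was called. Irs2 (ENSMUSG00000038894; chr8:10984681-11008458, minus strand), which couples the receptor to PI3-kinase and is itself a gene that FOXO factors switch on in fasting, was called lower. Its lowest, median and highest level was 4.51, 5.40 and 13.1 CPM in fibrotic livers. Among FLO livers it stood at 10.04, 13.3 and 17.3 CPM. Of the fibrotic libraries 5 lay between 4.51 and 6.48 CPM, below all FLO libraries, while fibrotic replicate 4 lay at 13.1 CPM, within the FLO range. The mean was 6.61 ± 3.25 against 13.5 ± 2.72 CPM, 2.03-fold lower (log2 fold change -1.02, SE 0.24, 95% interval -1.54 to -0.51, FDR 0.00254). Without fibrotic replicate 4 the log2 fold change was -1.34 (FDR 3.92e-06).

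Irs1 (ENSMUSG00000055980; chr1:82233101-82291416, minus strand), the docking protein also central to growth signalling, had a positive difference that was not called. Its lowest, median and highest level was 11.8, 17.0 and 18.7 CPM in fibrotic livers. The FLO levels were 5.69, 9.09 and 16.2 CPM. All 6 fibrotic libraries lay above the FLO median, but FLO replicates 1 and 2, at 16.2 and 15.2 CPM, stood inside the fibrotic range. The mean was 15.98 ± 2.71 against 10.5 ± 4.27 CPM, with a log2 fold change of 0.60 (SE 0.22, 95% interval 0.12 to 1.08) and an FDR of 0.0358, past 0.05 but not 0.01. It was called without FLO replicate 1 (0.77, FDR 0.00815) and had its smallest value without FLO replicate 6 (0.47).

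Exons of an antisense gene, Gm9747, cover 2822 bases or 30.9% of the Irs1 exons, and although the study's methods name a stranded library kit for RNA-seq, whether the counting used strand is not given in the sources used here. Gm9747 held between 22 and 92 counts per fibrotic library, between 109 and 203 per FLO library (log2 fold change -1.43, FDR 0.00021), the opposite direction to Irs1, and its part in the Irs1 value was not tested. The antisense gene 9530052E02Rik covers 162 bases of Irs2 and had at most 1 count in any library.

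Because each gene has its own length, the docking proteins were compared with each other per length, as CPM per kb of the longest transcript. Irs2 stood above Irs1 in 6 of 6 FLO livers, with a ratio of Irs2 to Irs1 of 1.47 to 3.69 and a median of 1.76. In fibrotic livers the ratio was 0.413 to 1.40 with a median of 0.489, and Irs2 stood below Irs1 in 5 of 6. The exception was fibrotic replicate 4, at 1.40, which lay just under the lowest FLO ratio of 1.47. This order is a description and was not tested. It rests on Irs1 values over exons of which Gm9747 covers 30.9%. The part of Gm9747 in the ratio was not tested either. The plot of both genes in each liver shows the lines sloping up in FLO and down in fibrotic livers.

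**Figure D2:**
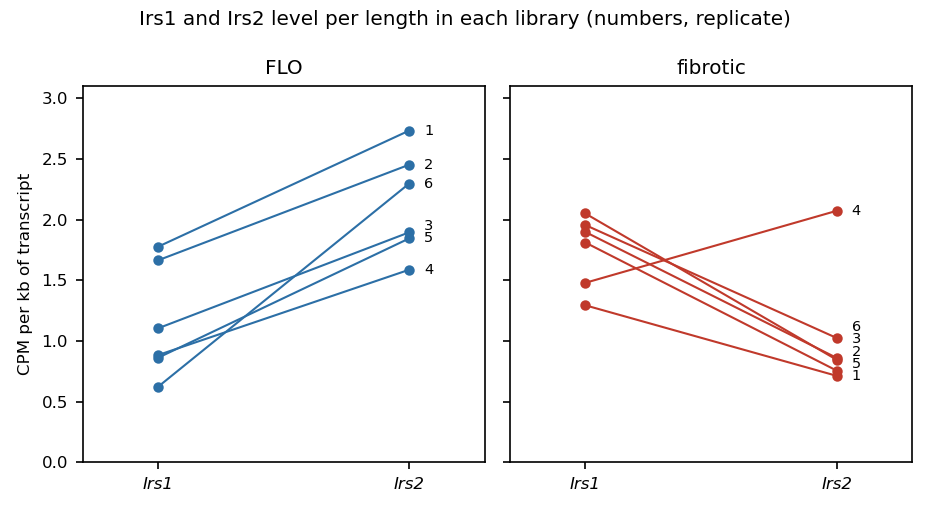
Level of Irs1 and Irs2 in each liver as CPM per kb of the longest transcript (y axis, from 0), with a line joining the 2 genes of a liver and the replicate number at its right end, moved apart where numbers would collide. Irs2 lies above Irs1 in 6 of 6 FLO livers and below it in 5 of 6 fibrotic livers, fibrotic replicate 4 being the exception.

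The bases just before the RefSeq start sites of the docking genes are shown. The reason is that these genes share a response-element motif in this stretch while their differences had opposite signs. Both sequences are from RefSeq windows on GRCm38.p6, minus strand, written 5′ to 3′ in the direction of transcription, 250 bases each, and lie outside the annotated exons. Irs1 is chr1:82291440-82291689 (72.4% G and C) and Irs2 is chr8:11008930-11009179 (72.8%), against a median of 52.4% over all windows. Capitals mark TGTTTTG, the reverse of CAAAACA.
Irs1: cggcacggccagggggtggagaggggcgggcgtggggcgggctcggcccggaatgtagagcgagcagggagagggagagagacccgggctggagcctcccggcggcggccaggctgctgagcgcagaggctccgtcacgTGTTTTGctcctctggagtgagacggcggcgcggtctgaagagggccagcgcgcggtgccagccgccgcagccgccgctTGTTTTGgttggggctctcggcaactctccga
Irs2: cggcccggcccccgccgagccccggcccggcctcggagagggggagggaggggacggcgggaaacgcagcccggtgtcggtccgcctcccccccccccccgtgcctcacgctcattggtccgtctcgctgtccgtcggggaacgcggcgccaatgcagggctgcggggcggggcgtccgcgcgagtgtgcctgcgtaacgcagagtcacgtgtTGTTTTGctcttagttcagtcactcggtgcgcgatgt
The motif begins 111 and 32 bases before the RefSeq start site of Irs1 and 37 bases before that of Irs2. Both RefSeq starts lie upstream of the GENCODE gene starts (82291416 for Irs1 and 11008458 for Irs2). The motif is therefore farther from the GENCODE starts, most so for Irs2. CAAAACA, on either strand, occurs in 5.56% of the 32851 RefSeq windows of all genes, GTAAACA in 3.17% and TTCNNNGAA in 7.02%, and no 2 of these motifs share bases in the windows shown. RefSeq windows were found for 9 of the 10 genes (14 windows in all), and Insr had no entry. None of the 14 holds GTAAACA, Akt2 holds TTCGGGGAA at 160 bases and Socs3 holds TTCTTAGAA at 154 bases before the RefSeq start. The Socs3 window covers part of a Socs3 exon and lies inside the GENCODE span of the gene. A match is no evidence of binding, and the missing letters in a window this short say nothing about the factor.

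The kinase arm showed no call. Akt2 (ENSMUSG00000004056; chr7:27591552-27640826, plus strand), the main AKT of insulin action in liver, had 134, 142 and 146 CPM as lowest, median and highest in fibrotic livers. Its FLO levels were 111, 129 and 143 CPM. The 6 fibrotic libraries were close together, within the upper part of the FLO range or just above it. The mean was 141 ± 5.13 against 129 ± 13.0 CPM, and the interval of the log2 fold change, -0.03 to 0.30, included 0 (0.13, SE 0.08, FDR 0.168). Pik3r1 (ENSMUSG00000041417; chr13:101680563-101768217, minus strand), the regulatory subunit of PI3-kinase, had 58.8, 78.9 and 84.1 CPM in fibrotic livers. Its FLO levels were 57.6, 89.0 and 97.4 CPM. The groups overlapped over most of their range, FLO replicate 3 being the lowest library of all. Means were 74.6 ± 10.8 and 84.6 ± 15.3 CPM (log2 fold change -0.18, SE 0.13, 95% interval -0.45 to 0.09, FDR 0.260). Without FLO replicate 3 the difference was -0.27 (FDR 0.0473), which was still not called.

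Among the transcription factors, Foxo1 (ENSMUSG00000044167; chr3:52268336-52353221, plus strand), which drives glucose output genes when insulin is low, lay just outside the call. Its lowest, median and highest level was 51.1, 71.8 and 114 CPM in fibrotic livers. Among FLO livers it stood at 42.8, 53.5 and 58.2 CPM. Fibrotic replicate 1, at 51.1 CPM, lay inside the FLO range and the other 5 fibrotic libraries lay above it, fibrotic replicate 4 highest. The mean was 74.9 ± 21.6 against 52.6 ± 5.86 CPM (log2 fold change 0.51, SE 0.15, 95% interval 0.18 to 0.84, FDR 0.0123). It was called without fibrotic replicate 1 (0.60, FDR 0.00257) and without fibrotic replicate 5 (0.57, FDR 0.00905), and stood at 0.36 without fibrotic replicate 4. An antisense gene, Gm20402, covers 674 bases of Foxo1 and had 0 to 6 counts per library.

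Foxo3 (ENSMUSG00000048756; chr10:42181841-42276755, minus strand), a FOXO factor that shares many targets with FOXO1, had 42.6, 49.6 and 90.7 CPM in fibrotic livers. The FLO levels were 43.1, 62.6 and 69.2 CPM. The groups overlapped, and fibrotic replicate 4 stood above every other library of both groups. The mean was 56.3 ± 18.02 against 59.6 ± 10.8 CPM, with a log2 fold change of -0.08 (SE 0.18, 95% interval -0.46 to 0.30, FDR 0.731). Without fibrotic replicate 4 it was -0.26, also not called.

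Of the inhibitors, Grb14 (ENSMUSG00000026888; chr2:64912476-65024987, minus strand), an adaptor that binds the active insulin receptor and blocks its kinase, was called lower. In fibrotic livers its lowest, median and highest level was 25.6, 36.0 and 40.4 CPM. Its FLO levels were 49.4, 52.6 and 53.2 CPM. The FLO libraries stood within 4 CPM of each other, all above every fibrotic library, and fibrotic replicate 4 was the lowest. The mean was 34.9 ± 5.09 against 51.8 ± 1.82 CPM, 1.48-fold lower (log2 fold change -0.57, SE 0.09, 95% interval -0.77 to -0.37, FDR 0.000121). Without fibrotic replicate 4 the log2 fold change was -0.48 (FDR 2.12e-05), so that it no longer passed the fold threshold while its FDR was smaller.

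Socs3 (ENSMUSG00000053113; chr11:117966079-117970047, minus strand), the feedback inhibitor that leptin and interleukin-6 induce through STAT3, had the widest interval of the 10 genes. It had 4.23, 6.44 and 12.8 CPM in fibrotic livers. Among FLO livers it stood at 4.92, 6.68 and 17.4 CPM. The groups overlapped over most of their range, FLO replicate 6 being the highest library and fibrotic replicate 4 next. Means were 7.55 ± 3.60 and 8.48 ± 4.76 CPM, and the interval of the log2 fold change was wide, -0.94 to 0.61 (-0.16, SE 0.36, FDR 0.725). Without FLO replicate 6 its sign turned (0.18). The plot of fold changes sets these intervals side by side.

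**Figure D3:**
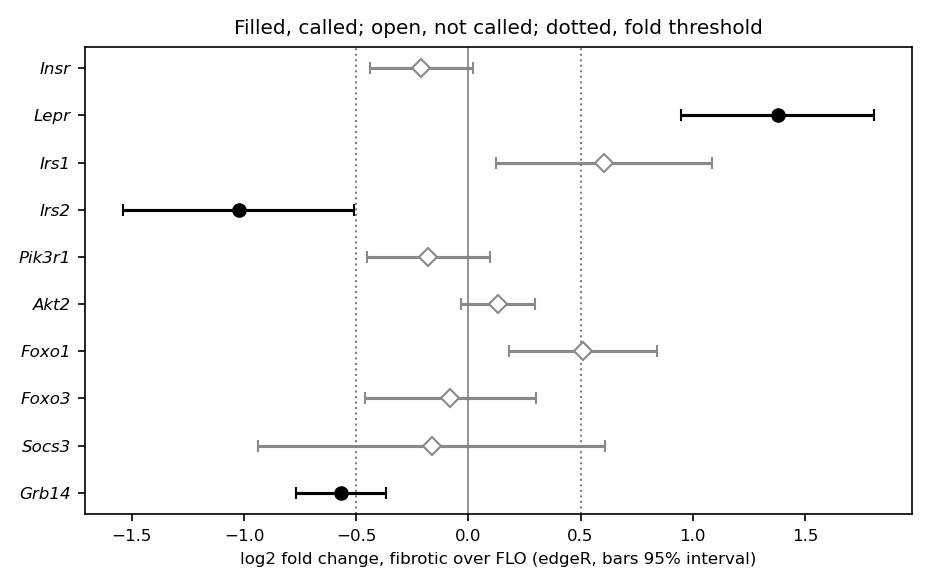
Log2 fold change of fibrotic over FLO for each of the 10 genes from the edgeR fit (x axis), with 95% intervals as bars, filled circles for called genes, open diamonds for genes not called, and dotted lines at the fold threshold of 0.5 in either direction. Lepr (1.38) lies to the right and Irs2 (-1.02) and Grb14 (-0.57) to the left, while the intervals of Insr, Pik3r1, Akt2, Foxo3 and Socs3 include 0.

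Per length, Akt2 was the most abundant of the 10 transcripts in both groups, at 31.0 ± 1.13 CPM per kb in fibrotic and 28.3 ± 2.86 in FLO livers. Grb14 (12.5 ± 1.82 and 18.5 ± 0.652), Pik3r1 (10.5 ± 1.52 and 11.9 ± 2.14) and Insr (9.46 ± 1.504 and 10.9 ± 1.04) came next. In fibrotic livers the mean ± SD of each of these genes overlapped that of the next, and in FLO livers Grb14 stood apart from Pik3r1 while Pik3r1 and Insr overlapped. Foxo1 (8.64 ± 2.50 and 6.07 ± 0.677) and Foxo3 (8.23 ± 2.63 and 8.70 ± 1.57) followed. These 2 genes overlapped in fibrotic livers, whereas in FLO livers Foxo3 stood above Foxo1. The lowest were Socs3 (2.96 ± 1.41 and 3.32 ± 1.86), Lepr (1.78 ± 0.588 and 0.685 ± 0.131), Irs1 (1.75 ± 0.296 and 1.15 ± 0.467) and Irs2 (1.05 ± 0.514 and 2.13 ± 0.430). Lepr was the lowest of the 10 in FLO livers, where it overlapped Irs1 and both lay below Irs2. Irs2 was the lowest in fibrotic livers, where its spread overlapped that of Irs1 and where Lepr and Irs1 could not be told apart. Several places depend on the length used. The longest transcript of Grb14 (2797 bases) is not protein coding. Its level was 17.6 and 26.1 CPM per kb of its longest coding transcript, again second to Akt2, but 4.86 and 7.20 with all its exons joined, below Insr and Pik3r1. With joined exons Foxo1 (8.64) and Foxo3 (7.44) stood above Pik3r1 (7.41) and Insr (6.44) in fibrotic livers, Foxo3 stood above Insr in FLO livers, and Lepr and Irs1 changed places in fibrotic livers.

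The other genes of the insulin pathway, in lists written with earlier results of these data known, were mostly not called. Of 13 genes at the receptor level and among adaptors 10 were tested, with 2 called higher, 1 lower (30.0% called, beside 29.9% of all genes tested) and a median log2 fold change of 0.05. The number called lower was 0 in 5 of the 12 fits without 1 library (fibrotic replicates 4 and 6, FLO replicates 1, 2 and 4). Crk (0.72, FDR 1.07e-05), an adaptor of receptor tyrosine kinases, and Sos1 (0.64, FDR 7.39e-05), which activates RAS, were higher. Insrr, Irs3 and Irs4 did not pass the low-count filter.

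In the PI3-kinase, AKT and mTOR arm 22 of 23 genes were tested, 2 were called higher and 2 lower (18.2%, beside 29.9% of all genes tested), and the median was 0.10. The number called higher was 4 without fibrotic replicate 2. Pik3r3 (0.88, FDR 0.00343), a further regulatory subunit of PI3-kinase, and Eif4ebp1 (0.59, FDR 0.00116), the translation repressor that mTOR turns off, were higher. Gys2, the liver glycogen synthase, was lower, at 82.8 ± 20.6 against 204 ± 38.9 CPM (-1.30, FDR 2.25e-05), and so was the FOXO family gene Foxo4 (-0.77, FDR 4.90e-06).

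Among the other inhibitors of the pathway 13 of 14 were tested, 5 were called higher and 1 lower, with a median of 0.10. These are 46.2% of the 13, beside 29.9% of all genes tested. Higher were Ahsg (8803 ± 1729 against 4278 ± 311 CPM, log2 fold change 1.04, FDR 1.14e-05), which encodes the secreted inhibitor fetuin-A, Grb10 (0.92, FDR 0.00715), a relative of Grb14, Phlpp2 (0.71, FDR 0.00631), an AKT phosphatase, and the phosphatase genes Inppl1 (71.0 ± 8.52 against 43.7 ± 5.21 CPM) and Ptpn2 (11.1 ± 2.25 against 7.34 ± 1.16 CPM). Leaving out a library ended the call of Grb10 in 6 of 12 fits (FDR up to 0.0183, without FLO replicate 2) and of Phlpp2 in 7 (up to 0.0185, without fibrotic replicate 6), so that 3 to 5 of these inhibitors were called higher. Grb7, the third member of the Grb14 family, was lower (45.7 ± 7.27 against 93.0 ± 11.6 CPM, -1.03, FDR 3.34e-06). Grb14 and Grb7 were therefore both called lower and Grb10 higher, although Grb10 was sparse, at 5.15 ± 2.48 against 2.72 ± 0.628 CPM. Ptpn1, the phosphatase of the insulin and leptin receptor pathways, had a log2 fold change of 0.39 (FDR 0.0156) and was not called.

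In leptin and cytokine receptor signalling 19 of 20 genes were tested, 1 was called higher (Leprotl1) and 3 lower (21.1%, beside 29.9% of all genes tested), with a median of -0.08. The number called higher was 2 without FLO replicate 5. Lower were Ghr (194 ± 23.7 against 339 ± 23.8 CPM, -0.81, FDR 4.15e-06), the growth hormone receptor, Il6ra (-0.78, FDR 0.000885), the interleukin-6 receptor, and Stat5b (-0.62, FDR 0.000872), through which growth hormone acts. Lepr and Ghr, which belong to the same receptor family, thus stood in opposite directions. Jak2, the kinase bound to both receptors, had a log2 fold change of 0.07 (FDR 0.578) and Stat3 one of -0.33 (FDR 0.0317), and neither was called.

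Of 14 STAT3 response genes of liver 3 were called higher and 2 lower (35.7%, beside 29.9% of all genes tested), with a median of 0.08. Cebpb (0.98, FDR 6.26e-05), a transcription factor of the acute phase, Fgb (0.82, FDR 0.000185), a fibrinogen chain, and Saa3 (0.74, FDR 0.00747), a serum amyloid A gene, were higher. Saa2 (-1.91, FDR 0.001), another serum amyloid A gene, and Il1rn (-1.08, FDR 0.00785), the interleukin-1 receptor antagonist, were lower. Leaving out a library ended the call of Saa3 in 8 of 12 fits (FDR up to 0.0181, without fibrotic replicate 3) and of Il1rn in 8 (up to 0.0216, without FLO replicate 6). Saa1 and Saa2 are near-identical copies that can share reads, so the value of Saa2 is uncertain.

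Of 18 FOXO target genes that insulin lowers, 3 were called higher and 3 lower (33.3%, beside 29.9% of all genes tested), and the median was 0.04. Pdk4, which shuts pyruvate out of oxidation, stood at 212 ± 183 against 41.6 ± 18.2 CPM (2.35, FDR 0.00287, and 1.76 without fibrotic replicate 4), Igfbp1, an IGF-binding protein of the fasted liver, at 223 ± 75.8 against 87.9 ± 53.1 CPM (1.34, FDR 0.00528), and Apoc3, an apolipoprotein that slows triglyceride clearance, at 3121 ± 461 against 1989 ± 230.1 CPM (0.65, FDR 0.000316). The gluconeogenic gene Pck1 was lower, at 1609 ± 503 against 3404 ± 701 CPM (-1.08, FDR 0.00027), as were Bcl6 (-0.71, FDR 0.00571), a transcriptional repressor, and Sesn3 (-0.51, FDR 0.00278), a stress protein that acts on mTOR. With a library left out the call was lost for Igfbp1 in 7 of 12 fits (FDR up to 0.0157, without fibrotic replicate 4), for Bcl6 in 9 (up to 0.0152, without fibrotic replicate 1) and for Sesn3 in 5 (-0.41, without FLO replicate 1, short of the fold threshold), and the number called lower ran from 1 (without fibrotic replicate 3) to 5 (without fibrotic replicate 2). G6pc, the last step of glucose output, had a log2 fold change of -0.52 (FDR 0.0469) and was not called. Targets of the same factors thus stood on both sides.

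Of 14 genes that insulin raises through SREBP1c and LXR, 1 was called higher and 7 lower, 57.1% beside 29.9% of all genes tested, with a median of -0.74. Scd1, the fatty acid desaturase, was at 1742 ± 1690 against 21357 ± 3632 CPM (-3.62, FDR 0.000692), Pnpla3, a lipid droplet lipase, at 0.413 ± 0.235 against 2.74 ± 3.02 CPM (-2.74, FDR 0.00167, and -1.88 without FLO replicate 3), and Srebf1, which encodes SREBP1c, at 58.7 ± 12.6 against 264 ± 63.3 CPM (-2.17, FDR 2.21e-07). Pnpla3, 1 of the 7 called lower, had only 2 to 16 counts per fibrotic library, near the floor, and 17 to 206 per FLO library. Its FLO levels carried it past the low-count filter, so its call is weak support and the size of its change is uncertain. The exception in direction was Angptl8, a secreted inhibitor of lipoprotein lipase, at 308 ± 65.9 against 21.3 ± 7.38 CPM (3.85, FDR 2.30e-08). The plot of the pathway lists shows this list with most of its points to the left of 0 and Angptl8 far to the right.

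**Figure D4:**
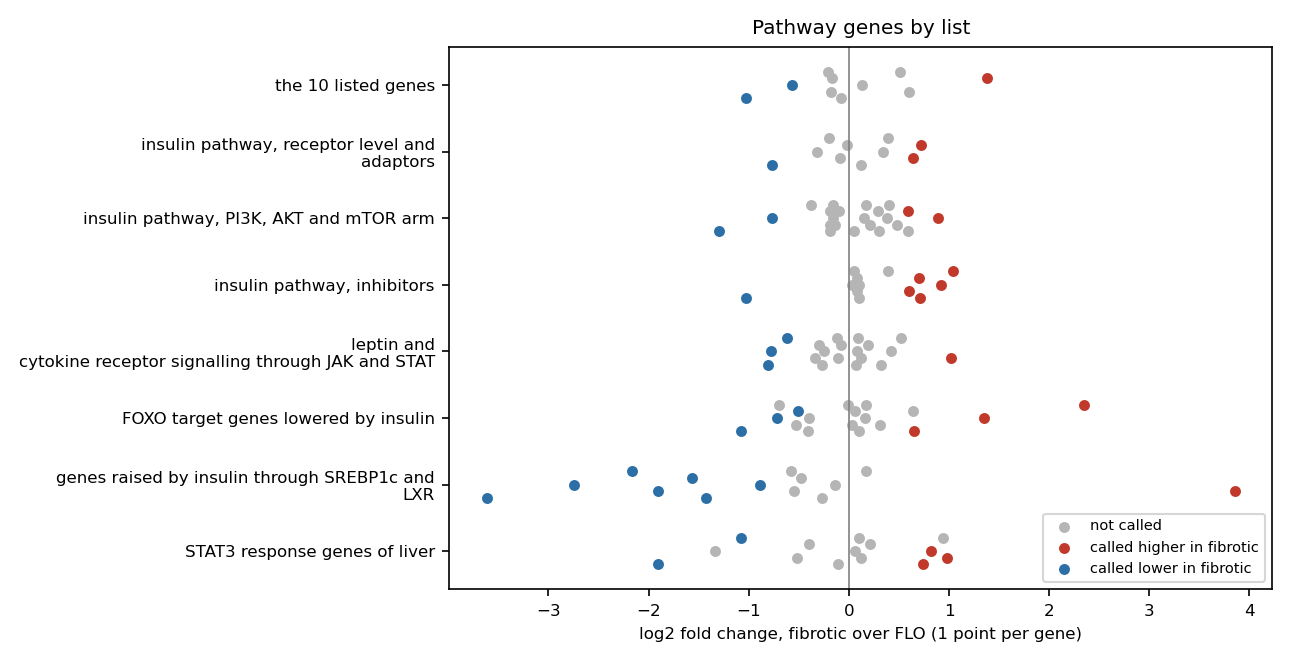
Log2 fold change of fibrotic over FLO (x axis) for every tested gene of the 10 listed genes and of 7 pathway lists, 1 point per gene, red where called higher, blue where called lower and grey where not called. Called genes lie on both sides of 0 in every list shown, and the list of genes raised by insulin through SREBP1c and LXR has the lowest median, -0.74.

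In bulk liver, fewer cells of a type and less RNA per cell cannot be told apart, and markers of several cell types moved with the groups. Hepatocyte markers (5 tested, 1 called higher and 1 lower) summed to 47908 to 80318 CPM in fibrotic and 66943 to 81596 in FLO livers, so that liver identity was plain in both. Alb, not called, makes up most of this sum (52922 ± 10280 against 65410 ± 5223 CPM). The single markers diverged, with Apoa1 called lower (765 ± 117 against 2445 ± 622 CPM) and Cps1 higher (3269 ± 953 against 1976 ± 510 CPM). Kupffer cell markers, of liver macrophages, were called higher for 6 of 7 and summed to 236 to 490.1 against 175 to 217 CPM. Recruited macrophage markers (2 of 7 higher) summed to 144 to 343 against 91.9 to 166 CPM, and cholangiocyte markers, of bile duct cells, (4 of 6 higher) to 81.5 to 277 against 47.3 to 88.7 CPM. Spp1 (122 ± 63.6 against 60.5 ± 13.4 CPM, called higher) is counted in both of these lists and makes up most of the cholangiocyte sum. Endothelial markers, of vessel lining cells, summed to 118 to 163 against 164 to 189 CPM, with 1 of 6 lower and none higher. Of stellate cell markers 1 of 6 was higher (335 to 454 against 315 to 386 CPM), of neutrophil markers 1 of 2 tested, and of lymphocyte markers 0 of 2 tested. Among all genes tested 15.9% were called higher and 14.0% lower. The counts of 1 in 6 for endothelial and stellate markers are near that background, so these counts are not a result about those cells. The endothelial sums did not overlap between the groups, though they came close. Their markers had a median log2 fold change of -0.28, with Kdr called lower (-0.58, FDR 6.07e-05). The stellate sums overlapped. The part of these cell types and of the mitochondrial share in the values of Lepr, Irs2 and Grb14 was not tested. Of adipocyte markers, Adipoq, Plin1 and Lep did not pass the low-count filter and Cidec and Fabp4 were not called, and the pancreatic genes Ins1, Ins2, Cpa1 and Pnlip were at 0 in all 12 libraries.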

How the data were processed

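Poly(A)-selected RNA from 12 whole livers was sequenced, and the authors deposited a table of raw, unnormalized counts for each Ensembl gene. The submitters' processing notes name bcl2fastq, STAR 2.7.3a and the mm10 build. The annotation and the strand setting of the counting are not given in the sources used here. Groups and replicate numbers came from the sample titles. Symbols matched 51745 of 56205 identifiers (the others held 0.0587% of counts). Positions and lengths are from GENCODE M21 (GRCm38, the same assembly as mm10) and upstream windows from RefSeq.

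The quasi-likelihood test of edgeR 4.0.16 (R 4.3.3) was used (robust fit, TMM, filterByExpr, Benjamini-Hochberg over 13416 genes, no covariate), with the thresholds of the study's methods, and was tested on simulated data. The simulated data held a far smaller share of changed genes than was called here, so they do not show how the test behaves at that share. The SE is the absolute log2 fold change divided by the square root of F, and intervals are 95%. CPM values have no prior count. Alternatives were DESeq2 1.42.0, limma 3.58.1 (voom), RLE factors, TMM with the top 50 genes by count removed, no filter, a replicate block, an FDR of 0.05, each library left out, and 2 chosen after seeing the data: without FLO replicate 3 and fibrotic replicate 4 together, and lengths of coding transcripts. Every pair of libraries of a group differed by more than counting noise (chi-square per degree of freedom at least 10.7). SDs include counting error.

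The 10 genes, the pathway lists and the marker lists were chosen with earlier results of these data known, so no list was tested. Named genes are all 10, then up to 3 called genes of largest change in each direction per list, and G6pc, Pck1, Igfbp1, Srebf1, Stat3, Jak2, Igf1r, Ptpn1 and Lep. Inppl1, Ptpn2, Leprot and the antisense genes were named after their values were seen. A few genes that this rule names are not reported here.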

Additional observations from a re-analysis of the deposited data

Results flagged for a closer look

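Irs2 in fibrotic replicate 4 (13.1 CPM) stood apart from the other 5 fibrotic libraries (4.51 to 6.48 CPM). Its gap to the nearest library was 0.662 of the group's range, above Dixon's 95% critical value for 6 libraries. This was the 1 flag in 20 tests of the 10 genes in 2 groups, and chance gives about 1.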

How the results depend on the processing

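Lepr and Irs2 were called in the same direction under every alternative and with each library left out. Grb14 lost its call without fibrotic replicate 4 (-0.48) and without that library and FLO replicate 3 together (-0.50, FDR 3.57e-05), in both cases by the fold threshold. At an FDR of 0.05 with no minimum fold, 6994 genes (3662 higher, 3332 lower) and 5 of the 10 were called. Under the other alternatives all genes called ranged from 3751 (without both libraries named above) to 4654 (DESeq2), and from 3798 to 4093 with each library left out; of the 10 genes, 2 to 4 were called with each library left out. Foxo1 was past the FDR but not the fold in DESeq2 (0.49, FDR 0.00816). Signs turned for Socs3 without FLO replicate 6 (0.18, range -0.37 to 0.18 over libraries left out), for Jak2 without both libraries (-0.036), and for Igf1r under limma-voom (0.025), under the replicate block (0.00011) and in 4 fits with a library left out (range -0.13 to 0.13). The causes were not tested. Libraries with the same replicate number had correlations of deviations of -0.162 to 0.104. Libraries of unlike number were not compared in this way, so these values cannot settle whether the numbers paired the mice. With the replicate block 3780 genes and 3 of the 10 were called. Of the other named genes, Grb10, Phlpp2, Igfbp1, Bcl6, Sesn3, Saa3 and Il1rn lost their calls in 5 to 9 of the 12 leave-one-out fits, and G6pc was called in 1. With all exons joined, the level per length of Insr, Pik3r1, Akt2 and Grb14, and of Lepr in FLO livers, moved by more than 1 SD. The median log2 fold change of all genes was 0.025 with TMM, 0.0044 with RLE and 0.028 without the top genes, and 53.3, 51.1 and 53.8% of calls were higher. Of the 10 genes, depth limits Lepr, Irs2 and Socs3 most, each under 100 counts in at least 1 library.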
